A study of Homo sapiens with 8 samples.

Results

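The genes described here are 50 genes of cholesterol and fatty acid synthesis and of their control, chosen by symbol from the 62086 genes of the count table. They were selected on their place in these pathways and with their responses to the antibody already known, so their counts and fold changes at 12 and 24 h are a description and support no statement about the pathways as a whole. All 50 were found, and all 50 were among the 20165 genes that passed the filter on low counts. They comprise 20 genes of sterol synthesis (the sterol arm), 14 genes of fatty acid and glycerolipid synthesis (the fatty acid arm), 6 genes that control the SREBP transcription factors, 4 genes of sterol transport and storage and 6 genes of the liver X receptors (LXR) and their targets. The cells were BG01, a single line of human embryonic stem cells (hESCs) grown in mTeSR medium. They were given 5 µg/mL of anti-M8nAb, a neutralizing antibody against the secreted glycoprotein MFGE-8, or 5 µg/mL of normal mouse IgG as the control, for 12 or 24 h. Each of the 4 groups (IgG 12 h, anti-M8nAb 12 h, IgG 24 h and anti-M8nAb 24 h) had 2 libraries, 8 in all, with 21010400 to 21792716 reads over genes in each.

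Cells make cholesterol from acetyl-CoA through mevalonate, isoprenoid diphosphates, squalene and lanosterol, and they make long-chain fatty acids from acetyl-CoA through malonyl-CoA. Both routes are switched on by SREBP proteins, which are held in the endoplasmic reticulum with SCAP and INSIG while sterols are plentiful, and which are carried to the Golgi, cut by the proteases S1P and S2P and sent to the nucleus when sterols fall. For cholesterol, though not for fatty acids, LXR proteins act the other way, binding oxysterols and turning on genes for cholesterol export. SREBP and LXR targets are thus commonly read side by side as a gauge of sterol state.

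Most genes of both synthesis arms were higher with anti-M8nAb than with IgG, mostly by less than 2-fold and by similar amounts at both times. The largest at both times were INSIG1, an SREBP target that also restrains SREBP, and HMGCS1, the enzyme that makes HMG-CoA. They were followed at 12 h by MVD, a decarboxylase of the mevalonate route, and STARD4, which carries cholesterol between membranes, and at 24 h by MSMO1, which removes methyl groups from lanosterol products, and STARD4. At an adjusted p under 0.05 by edgeR's quasi-likelihood F test, 35 of the 50 genes were higher at 12 h, against 15.8% of all genes tested, and 1 (LBR) was lower, against 16.4% of all genes. At 24 h 32 were higher, against 21.2% of all genes, and 3 (ABCG1, MYLIP and ACACB) were lower, against 21.3%. The same 32 genes were higher at both times, and MVK, NSDHL and SOAT1 passed as higher at 12 h without passing at 24 h. The 11 genes that passed at neither time were PMVK, TM7SF2, SREBF1, SCAP, MBTPS1, MBTPS2, NR1H2, ABCA1, LPCAT3, SCD5 and FADS1.

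A rise of at least 2-fold (a log2 fold change of 1) at an adjusted p under 0.05 was seen for 4 genes at 12 h, beside 3.4% of all genes tested. At 24 h such a rise was seen for 4 genes, beside 4.76% of all genes tested. Both anti-M8nAb libraries lay above both IgG libraries for 35 of the 50 genes at 12 h and for 35 at 24 h, 33 of them at both times. Over all genes tested this was so for 32.9% at 12 h and 34.8% at 24 h. The median log2 fold change of the 50 genes was 0.54 at 12 h and 0.38 at 24 h, beside medians over all genes of 0.0015 and 0.0034.

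**Figure D1:**
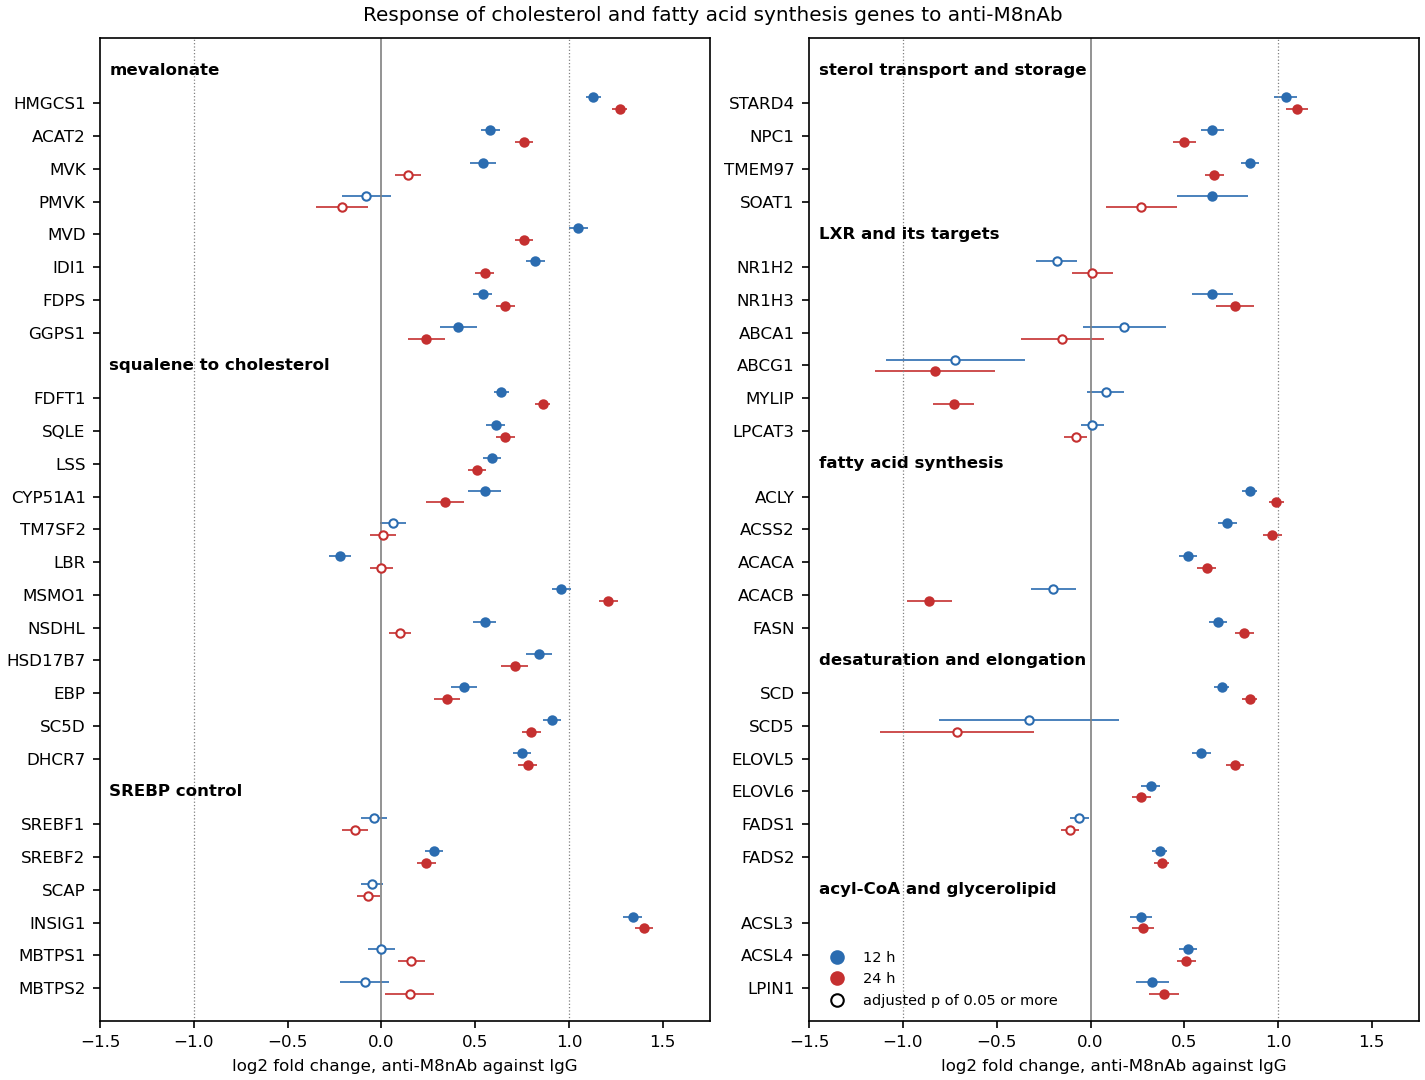
Log2 fold change of each of the 50 genes, anti-M8nAb against IgG, at 12 h (blue) and 24 h (red), grouped by role. Bars are the standard error of the fit, open circles are genes at an adjusted p of 0.05 or more, and dotted lines mark a log2 fold change of 1 in either direction. INSIG1 (1.34 and 1.40) lies farthest to the right, and ACACB (-0.86 at 24 h) and ABCG1 (-0.83 at 24 h) lie farthest to the left.

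The libraries carried the markers of pluripotent stem cells. The 6 genes of that marker list were all above 1 CPM (counts over the TMM-scaled library size) in every group, and their sum was 4987 to 5106 CPM with IgG and 5671 to 5706 CPM with anti-M8nAb at 12 h, and 4636 to 4696 and 5292 to 5352 CPM at 24 h. NANOG of this list was higher at 12 h (log2 fold change 0.25) and lower at 24 h (-0.25). Lists of markers for cells rich in lipid synthesis were near 0. The 5 adipocyte markers summed to at most 0.264 CPM in any library, with ADIPOQ and LEP at 0 in all libraries, and the 6 hepatocyte markers summed to 0.266 to 0.877 CPM in all groups but anti-M8nAb at 12 h, where they reached 3.09 and 7.51 CPM through SERPINA1 (mean 3 CPM) and ALB (mean 1.44 CPM). SERPINA1 and ALB passed as higher at 12 h (log2 fold changes of 5.86 and 5.64), from near 0 CPM with IgG, and did not pass at 24 h. Their anti-M8nAb libraries at 12 h differed, at 4.32 and 1.69 CPM for SERPINA1 and 2.06 and 0.82 CPM for ALB. The 5 markers of definitive endoderm summed to 4.58 to 6.48 CPM with IgG, 8.73 to 11.1 CPM with anti-M8nAb at 12 h and 15.9 to 18.1 CPM at 24 h. Within that list CER1 and CXCR4 were higher at 24 h (log2 fold changes of 3.24 and 1.97), FOXA2 was lower (-2.03), and SOX17 and GATA6 were at or near 0. The 5 neural progenitor markers summed to 169 to 183 CPM with IgG and 197 to 257 CPM with anti-M8nAb, and the 6 fibroblast markers to 122 to 188 CPM over all libraries. Within the fibroblast list COL1A2 was lower at 12 and 24 h (log2 fold changes of -0.60 and -1.09) and PDGFRB was higher (0.38 and 0.68). COL1A1 did not pass (-0.05 and 0.08), and COL3A1, DCN and LUM were below 1 CPM in all libraries. The part of these lists in the results below was not tested. In bulk RNA a change in the share of cells that express a gene and a change in its level per cell cannot be told apart.

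The 250 bases before the start of each gene were searched on both strands for motifs of factors known to act on sterol genes. The search used the RefSeq promoter windows of GRCh38.p14. Windows were at hand for 45 of the 50 genes, 63 windows in all, out of 35116 windows of the same length. Those 35116 windows cover 27305 genes, more than the 20165 tested, and so take in genes that failed the filter on low counts. The members all passed that filter, so the shares below do not compare genes of like expression. The strict sterol regulatory element core TCACNCCAC, which SREBP binds, was in 1.59% of the members' windows (SREBF2 alone) and in 0.883% of all windows. A looser form, TCACNCNAC, which takes in every match of the strict one and was added after that count was seen, was in 7.94% of the members' windows and 2.02% of all windows. Of the 45 genes with a window, 28 were higher with anti-M8nAb at 24 h, and a link between motif and response was not tested. The 5 genes with the looser form, ACSS2, FADS2, FDPS, HSD17B7 and SREBF2, were all higher with anti-M8nAb at both times. Their stretches are printed here because they hold that motif in genes of both arms and of SREBP itself, 5′ to 3′ along the gene, with the motif in capitals.
SREBF2, chr22:41832962-41832990: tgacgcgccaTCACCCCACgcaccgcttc
HSD17B7, chr1:162790594-162790622: tcggcctatcTCACCCGACgccgtctccg
FDPS, chr1:155308716-155308744: tgcgccatgcTCACACGACggccagcagc
FADS2, chr11:61815973-61816001: cctccagtctTCACACGACgcaggggtcc
ACSS2, chr20:34876364-34876392: ccttctgcttTCACTCGACggcgtcactc
All 5 genes lie on the plus strand. The motif stood 124 bases before the start in SREBF2, 89 in HSD17B7, 131 in FDPS, 211 in FADS2 and 229 in ACSS2. These distances are to the RefSeq start, which lies inside the GENCODE span of the gene in FDPS, FADS2 and ACSS2.

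The box CCAAT, bound by NF-Y, a partner of SREBP at sterol genes, was in 54% of the members' windows and 32% of all windows. The Sp1 motif GGGCGG was in 79.4% against 42.6%, and the E-box CACGTG in 9.52% against 6.34%. These shares describe letters in the windows. CCAAT was in 57.8% of the windows of members higher at 24 h and in 44.4% of those of members not higher at 24 h. For GGGCGG these shares were 82.2% and 72.2%. For CACGTG they lay the other way, at 8.89% and 11.1%. A link between any of these motifs and the response was not tested. Counted by gene instead of by window, the 5 genes that rose at least 2-fold at either time each held CCAAT, as did most members with a window. For each, 1 box is shown, again along the gene and with the box in capitals (ATTGG is CCAAT on the opposite strand).
HMGCS1, chr5:43313553-43313577, minus strand: tttccttttgATTGGtagaagccgg
MVD, chr16:88663197-88663221, minus strand: ctcgccgctgATTGGtcggcgcgcg
MSMO1, chr4:165327583-165327607, plus strand: actgcacagaCCAATcaccgcgccg
INSIG1, chr7:155297698-155297722, plus strand: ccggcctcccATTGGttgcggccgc
STARD4, chr5:111512651-111512675, minus strand: cccgcgccagCCAATccgaacaagc
The box lay 150 bases before the RefSeq start in HMGCS1, 115 in MVD, 71 in MSMO1, 165 in INSIG1 and 125 in STARD4. In all 5 genes, by least in MSMO1, that start lies inside the GENCODE span given below, so the box is nearer to the end of the span than these distances.

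In the mevalonate steps, which lead from acetyl-CoA to farnesyl and geranylgeranyl diphosphate, 7 of 8 genes were higher at 12 h and 6 of 8 at 24 h. HMGCS1 (chr5:43287470-43313512, GRCh38) joins acetoacetyl-CoA and acetyl-CoA. It was at 1341 and 1327 CPM with IgG and 2970 and 2889 CPM with anti-M8nAb at 12 h, and at 1324 and 1219 against 3067 and 3074 CPM at 24 h. These were log2 fold changes of 1.13 (SE 0.04) and 1.27 (SE 0.04), with every anti-M8nAb library far above every IgG library. A gene on the other strand overlaps 37.7% of the exon sequence of HMGCS1, and its reads could be among them, since both strands were counted.

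MVD (chr16:88651935-88663161), the decarboxylase that yields isopentenyl diphosphate, was at 378 and 377 CPM with IgG and 767 and 793 CPM with anti-M8nAb at 12 h. At 24 h it was at 342 and 371 against 609 and 602 CPM. The libraries were apart at both times, and the anti-M8nAb libraries were lower at 24 h than at 12 h, with log2 fold changes of 1.05 (SE 0.05) and 0.76 (SE 0.05). IDI1, the isomerase of isopentenyl diphosphate, moved in the same way. It was at 326 and 308 against 562 and 560 CPM at 12 h and at 274 and 245 against 378 and 382 CPM at 24 h, log2 fold changes of 0.82 (SE 0.05) and 0.55 (SE 0.05).

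ACAT2, the thiolase that makes acetoacetyl-CoA in the cytosol, was at 387 and 394 against 578 and 591 CPM at 12 h, and at 358 and 342 against 593 and 593 CPM at 24 h. Its libraries did not overlap at either time, and the log2 fold changes were 0.58 (SE 0.05) and 0.76 (SE 0.05). FDPS, which makes farnesyl diphosphate, rose by 0.54 (SE 0.05) and 0.66 (SE 0.05) on the log2 scale. GGPS1, which makes geranylgeranyl diphosphate for protein prenylation, was higher by 0.41 (SE 0.10) at 12 h, while its value at 24 h, 0.24 (SE 0.10, edgeR adjusted p = 0.04), fell short of the threshold under 12 of 19 alternatives. Genes on the other strand overlap 22.2% of the exon sequence of ACAT2, 18.6% of that of FDPS and 15% of that of IDI1, and a gene on the same strand shares 37.3% of that of GGPS1.

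Of the kinases between HMG-CoA and MVD, MVK was higher at 12 h alone and PMVK passed at neither time. MVK, mevalonate kinase, was at 87 and 90.8 against 122 and 136 CPM at 12 h and at 74.8 and 77.2 against 88.8 and 78.4 CPM at 24 h. Its log2 fold change came to 0.54 (SE 0.07) at 12 h but 0.14 (SE 0.07, edgeR adjusted p = 0.108) at 24 h. The groups were apart at 12 h and nearly met at 24 h. PMVK, phosphomevalonate kinase, did not pass at either time, with log2 fold changes of -0.08 (SE 0.13) and -0.21 (SE 0.14) and libraries that overlapped.

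From squalene to cholesterol, 10 of 12 genes were higher at 12 h and 9 of 12 at 24 h. MSMO1 (chr4:165327667-165343164), the sterol C4-methyl oxidase, was at 293 and 283 CPM with IgG and 564 and 557 CPM with anti-M8nAb at 12 h, and at 299 and 279 against 643 and 695 CPM at 24 h. The IgG libraries stayed close to each other over both times while those with anti-M8nAb went up further, and the log2 fold changes were 0.96 (SE 0.05) and 1.21 (SE 0.05). FDFT1, squalene synthase and the first enzyme committed to sterols, was at 923 and 923 against 1455 and 1422 CPM at 12 h and at 916 and 926 against 1647 and 1703 CPM at 24 h. It too was farther from IgG at 24 h, with log2 fold changes of 0.64 (SE 0.04) and 0.86 (SE 0.04).

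SC5D, the lathosterol desaturase, was at 325 and 325 against 616 and 609 CPM at 12 h, and at 319 and 298 against 532 and 542 CPM at 24 h. DHCR7, the last enzyme of the Kandutsch-Russell route, was at 376 and 385 against 641 and 640 CPM at 12 h, and at 368 and 388 against 655 and 647 CPM at 24 h. For both genes all anti-M8nAb libraries were above all IgG libraries, with log2 fold changes of 0.91 and 0.80 (SE 0.05 each) for SC5D and 0.75 and 0.78 (SE 0.05 each) for DHCR7. HSD17B7, the 3-keto sterol reductase, rose by 0.84 (SE 0.07) and 0.71 (SE 0.07), SQLE, squalene epoxidase, by 0.61 and 0.66 (SE 0.05 each) and LSS, lanosterol synthase, by 0.59 and 0.51 (SE 0.05 each). EBP, the sterol isomerase, rose less, by 0.44 and 0.35 (SE 0.07 each), and 36.4% of its exon sequence is shared with a gene on the same strand.

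CYP51A1, the lanosterol demethylase, rose by 0.55 (SE 0.09) at 12 h and 0.34 (SE 0.10) at 24 h, at a level of 6.8 FPKM (fragments scaled by gene length and library size) with IgG at 24 h. Its low level is uncertain, since 68.2% of its exon sequence is shared with other genes annotated on the same strand, and the call at 24 h was lost under 5 of 19 alternatives. NSDHL, the sterol-4-alpha-carboxylate dehydrogenase, was at 112 and 115 against 158 and 174 CPM at 12 h but at 112 and 103 against 109 and 120 CPM at 24 h. The groups were apart at 12 h and overlapped at 24 h, with log2 fold changes of 0.55 (SE 0.06) and 0.10 (SE 0.06, edgeR adjusted p = 0.225). The steps that act on the sterol 14-double bond differed from the rest. LBR, a lamin receptor of the inner nuclear membrane that is also a sterol C14-reductase, was lower at 12 h by -0.22 (SE 0.06) on the log2 scale, a call lost without IgG 12 h replicate 1, and did not pass at 24 h (-0.00, SE 0.06). TM7SF2, the other C14-reductase, did not pass at either time (0.06 and 0.01, SE 0.07 each).

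Among the genes that control SREBP, 2 of 6 were higher at each time. INSIG1 (chr7:155297776-155310235) was at 250 and 238 CPM with IgG and 618 and 615 CPM with anti-M8nAb at 12 h, and at 211 and 211 against 545 and 564 CPM at 24 h. This was the largest log2 fold change of the 50 genes, 1.34 (SE 0.05) and 1.40 (SE 0.05), with no overlap. The SREBP genes themselves were unlike. SREBF2, whose product favours sterol genes, was at 436 and 434 against 529 and 527 CPM at 12 h and at 411 and 417 against 501 and 476 CPM at 24 h, log2 fold changes of 0.28 and 0.24 (SE 0.05 each) with the libraries apart.

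SREBF1 encodes, among other products, SREBP-1c, which favours fatty acid genes. The counts are per gene and do not tell its products apart. SREBF1 was at 74.3 and 72.9 against 71.5 and 72.1 CPM at 12 h and at 63.6 and 73.9 against 64.5 and 60.2 CPM at 24 h. It did not pass at either time, with log2 fold changes of -0.04 (SE 0.07, edgeR adjusted p = 0.754) and -0.14 (SE 0.07, adjusted p = 0.121). Per length, SREBF2 was the more abundant in IgG cells at 24 h, at 53.4 FPKM against 8.67 FPKM for SREBF1. SCAP, the SREBP escort, did not pass (-0.05 and -0.07, SE 0.06 each).

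MBTPS1, which encodes S1P, was at 75 and 72.8 against 70.8 and 76.7 CPM at 12 h, and at 67.4 and 70 against 82.1 and 71.3 CPM at 24 h. The libraries overlapped at 12 h and were narrowly apart at 24 h, and the log2 fold changes of -0.00 and 0.16 (SE 0.07 each) did not pass. MBTPS2, which encodes S2P, did not pass either (-0.09 and 0.15, SE 0.13 each), with 13.4% of its exon sequence shared with YY2 and a Y RNA on the same strand.

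All 4 genes of sterol transport and storage were higher at 12 h, and 3 at 24 h. STARD4 (chr5:111496033-111512590) was at 225 and 204 CPM with IgG and 451 and 432 CPM with anti-M8nAb at 12 h, and at 215 and 193 against 413 and 460 CPM at 24 h. The 2 groups did not overlap, and the log2 fold changes were 1.04 (SE 0.06) and 1.10 (SE 0.06). TMEM97, which encodes the sigma-2 receptor and binds NPC1, was at 391 and 399 against 706 and 720 CPM at 12 h and at 350 and 331 against 543 and 532 CPM at 24 h. Its log2 fold changes were 0.85 and 0.66 (SE 0.05 each), and a gene on the other strand overlaps 12.3% of its exon sequence.

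NPC1, which lets cholesterol out of lysosomes, was at 88.4 and 90.4 against 133 and 148 CPM at 12 h and at 84 and 84.8 against 123 and 117 CPM at 24 h. The libraries of the groups stayed apart, and the log2 fold changes came to 0.65 and 0.50 (SE 0.06 each). SOAT1, which stores cholesterol as esters, was the least abundant of the 4. It was at 6.64 and 5.75 against 8.44 and 11 CPM at 12 h and at 7.42 and 4.76 against 6.52 and 8.18 CPM at 24 h. The groups were apart at 12 h (0.65, SE 0.19, a call lost under 6 of 19 alternatives, among them those without IgG 12 h replicate 2 and without anti-M8nAb 12 h replicate 2) and overlapped at 24 h (0.27, SE 0.19).

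**Figure D2:**
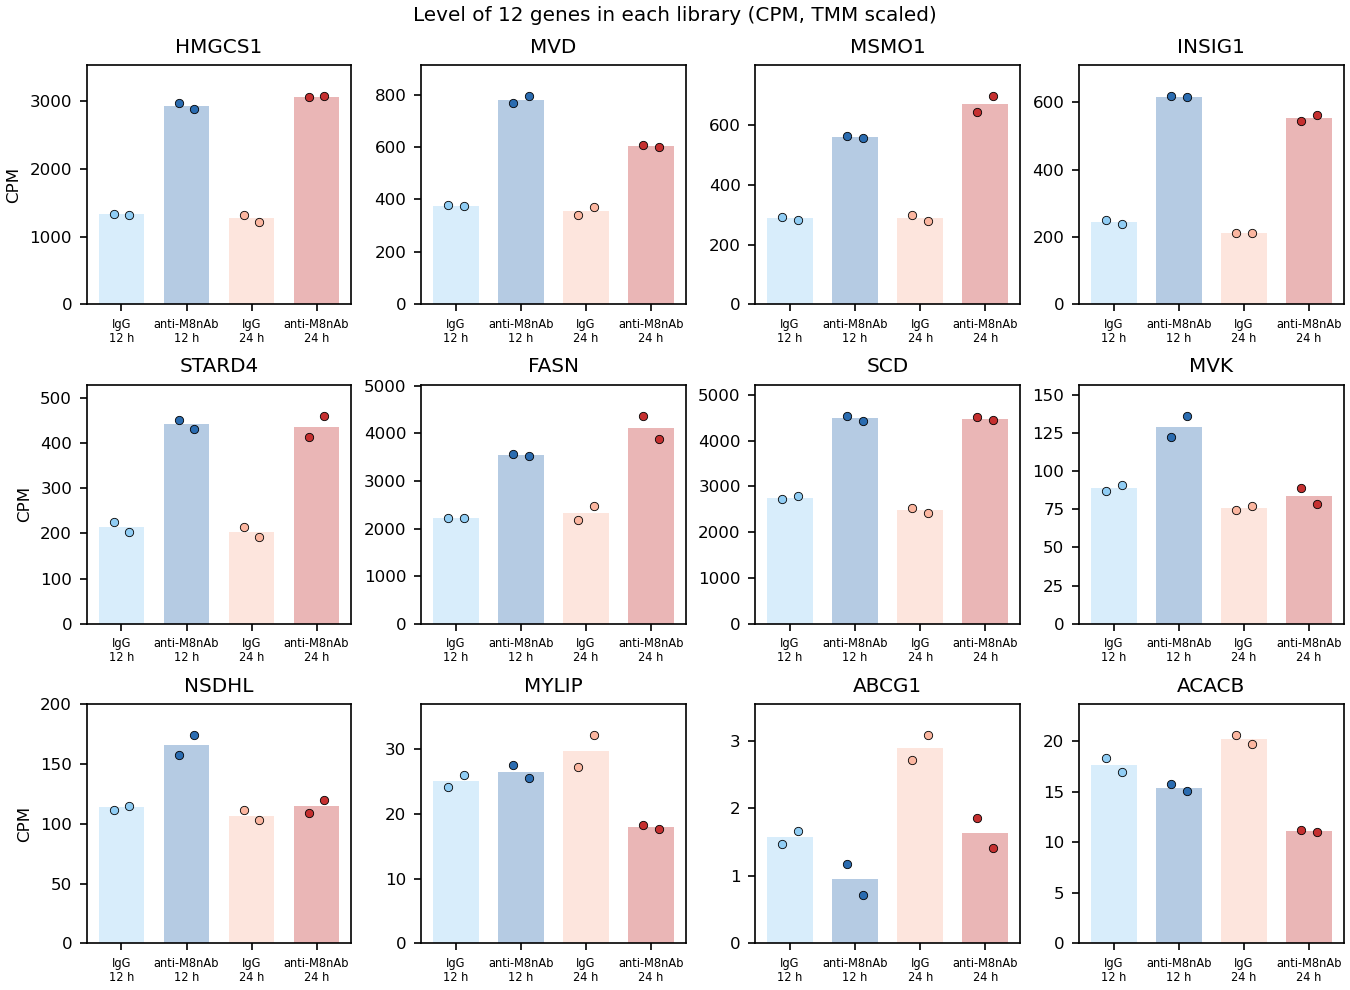
Level of 12 genes in CPM (scaled by TMM) in each of the 8 libraries. Points are libraries and bars are the mean of the 2 libraries of a group. HMGCS1, MVD, MSMO1, INSIG1, STARD4, FASN and SCD were higher with anti-M8nAb at both times, MVK and NSDHL were farther from IgG at 12 h, and MYLIP and ACACB fell at 24 h.

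The LXR genes did not share one direction. Of 6 genes, 1 was higher at each time, and 2 were lower at 24 h. NR1H3, which encodes LXR alpha, was at 19.1 and 17.7 against 28.7 and 29 CPM at 12 h and at 17.9 and 21.9 against 33.1 and 34.7 CPM at 24 h. All anti-M8nAb libraries lay above all IgG libraries, by log2 fold changes of 0.65 (SE 0.11) and 0.77 (SE 0.10). NR1H2, which encodes LXR beta, was at 21.1 and 23.8 against 21.1 and 18.6 CPM at 12 h and at 21.7 and 25.6 against 25 and 22.7 CPM at 24 h. It did not pass (-0.18 and 0.01, SE 0.11 each), and a gene on the other strand overlaps 22.1% of its exon sequence.

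MYLIP encodes IDOL, the ligase that sends lipoprotein receptors to be degraded. It was at 24.2 and 26 against 27.5 and 25.6 CPM at 12 h and at 27.3 and 32.1 against 18.3 and 17.6 CPM at 24 h. The libraries overlapped at 12 h and were apart at 24 h, where the log2 fold change was -0.73 (SE 0.11). ABCG1, a cholesterol exporter, was at 1.47 and 1.66 against 1.18 and 0.723 CPM at 12 h and at 2.71 and 3.08 against 1.85 and 1.41 CPM at 24 h. Both times lay below IgG, by -0.72 (SE 0.37, edgeR adjusted p = 0.135) and -0.83 (SE 0.32, adjusted p = 0.0311), at a level near 1 CPM, and the call at 24 h was lost under 6 of 17 alternatives, including those without either IgG 24 h library and without anti-M8nAb 24 h replicate 2.

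ABCA1, the other exporter, was at 3.73 to 5.02 CPM in all libraries and did not pass (0.18 and -0.15, SE 0.22 each). LPCAT3, an LXR target that sets phospholipid acyl chains, did not pass (0.01 and -0.08, SE 0.06 each), and 66.0% of its exon sequence lies under a gene on the other strand.

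In the fatty acid arm, the genes for making palmitate rose with the exception of 1 paralogue. ACLY, which splits citrate into acetyl-CoA, was at 1191 and 1188 CPM with IgG and 2134 and 2166 CPM with anti-M8nAb at 12 h, and at 1126 and 1136 against 2306 and 2188 CPM at 24 h. The groups were far apart, with log2 fold changes of 0.85 and 0.99 (SE 0.04 each). ACSS2, which makes acetyl-CoA from acetate, was at 286 and 266 against 435 and 479 CPM at 12 h and at 261 and 263 against 501 and 525 CPM at 24 h, log2 fold changes of 0.73 and 0.97 (SE 0.05 each).

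FASN, fatty acid synthase, was at 2229 and 2211 against 3573 and 3522 CPM at 12 h and at 2186 and 2468 against 4363 and 3877 CPM at 24 h. Each anti-M8nAb library was well above each IgG library, and the log2 fold changes were 0.68 and 0.82 (SE 0.05 each). The 2 acetyl-CoA carboxylases moved in opposite directions. ACACA, the cytosolic form that feeds fatty acid synthesis, was at 375 and 374 against 541 and 536 CPM at 12 h and at 373 and 364 against 593 and 538 CPM at 24 h, log2 fold changes of 0.52 and 0.62 (SE 0.05 each).

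ACACB, the form at mitochondria whose malonyl-CoA holds back fatty acid oxidation, was at 18.4 and 17 against 15.8 and 15.1 CPM at 12 h and at 20.6 and 19.8 against 11.2 and 11 CPM at 24 h. The libraries were apart at each time. The log2 fold changes were -0.20 (SE 0.12, edgeR adjusted p = 0.214) and -0.86 (SE 0.12). Per length, ACACA was at 29.4 FPKM and ACACB at 1.44 FPKM in IgG cells at 24 h.

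Of the desaturases and elongases, 4 of 6 genes were higher at each time. SCD, which makes oleate from stearate, was the most abundant of the 50 genes per length, at 490 FPKM with IgG at 24 h. It was at 2730 and 2786 against 4539 and 4432 CPM at 12 h and at 2523 and 2426 against 4505 and 4442 CPM at 24 h. The groups did not overlap, and the log2 fold changes were 0.70 and 0.85 (SE 0.04 each). Its paralogue SCD5 was at 0.44 FPKM in the same cells, was at 0.553 to 2.29 CPM in all libraries and did not pass (-0.33, SE 0.48, and -0.71, SE 0.41).

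ELOVL5, which lengthens polyunsaturated chains, was at 368 and 369 against 554 and 557 CPM at 12 h and at 375 and 339 against 605 and 610 CPM at 24 h, log2 fold changes of 0.59 and 0.77 (SE 0.05 each). ELOVL6, which lengthens palmitate, was at 333 and 333 against 421 and 408 CPM at 12 h and at 305 and 279 against 349 and 356 CPM at 24 h, a smaller rise of 0.32 and 0.27 (SE 0.05 each). Neither gene's groups overlapped.

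The neighbouring desaturase genes FADS1 and FADS2 differed. FADS2, the delta-6 desaturase, was at 1074 and 1121 against 1434 and 1411 CPM at 12 h and at 992 and 1034 against 1340 and 1297 CPM at 24 h. It was higher by 0.37 and 0.38 (SE 0.04 each), with the libraries apart. FADS1, the delta-5 desaturase, was below IgG in all libraries but did not pass (-0.06 and -0.11, SE 0.05 each, edgeR adjusted p = 0.393 and 0.0802). At 24 h it passed as lower under 4 of 19 alternatives.

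The 3 genes for acyl-CoA and glycerolipid were all higher at both times. ACSL4, an acyl-CoA synthetase that prefers arachidonate, was at 229 and 219 against 321 and 319 CPM at 12 h and at 220 and 197 against 302 and 293 CPM at 24 h. ACSL3, a synthetase of lipid droplets, was at 170 and 161 against 198 and 201 CPM at 12 h and at 173 and 159 against 198 and 205 CPM at 24 h. Their log2 fold changes were 0.52 and 0.51 (SE 0.05 each) for ACSL4 and 0.27 and 0.28 (SE 0.06 each) for ACSL3, with no overlap. LPIN1, the phosphatidate phosphatase, was at 28.4 and 26.4 against 35.8 and 33.2 CPM at 12 h and at 39.8 and 38.5 against 52.2 and 50.1 CPM at 24 h, log2 fold changes of 0.33 (SE 0.09) and 0.39 (SE 0.08). Its call at 12 h was lost under 5 of 19 alternatives, including those without IgG 12 h replicate 2 and without anti-M8nAb 12 h replicate 1.

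**Figure D3:**
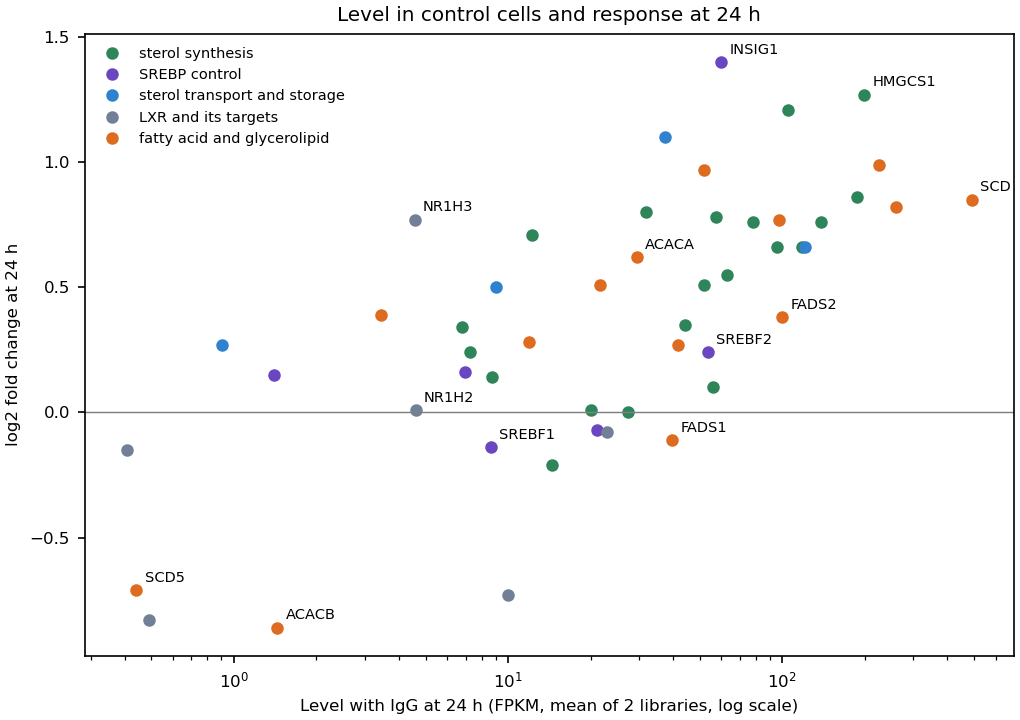
Log2 fold change at 24 h against the level in IgG cells at 24 h (mean FPKM of 2 libraries, log axis) for the 50 genes, coloured by role. SCD at 490 FPKM, HMGCS1 at 199 FPKM and ACACA at 29.4 FPKM lie above 0, and their less abundant relatives SCD5 (0.44 FPKM) and ACACB (1.44 FPKM) lie below it.

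Set side by side, the sterol arm had 17 of 20 genes higher at 12 h, beside 1 lower, and 15 higher at 24 h, beside none lower. The fatty acid arm had 11 of 14 higher at 12 h, beside none lower, and 11 higher at 24 h, beside 1 lower. The sterol arm had a median log2 fold change of 0.59 at 12 h and 0.60 at 24 h, and the fatty acid arm one of 0.45 at both times. The spread of these medians between replicates was 0.0247 (SD) and 0.0242 (SD, n = 2 libraries per group). In single libraries, the median ratio to the IgG mean was 1.49 and 1.54 at 12 h and 1.51 and 1.53 at 24 h for the sterol arm, and 1.37 and 1.35 at 12 h and 1.39 and 1.34 at 24 h for the fatty acid arm. Membership moved these medians. Without ACSL3, ACSL4 and LPIN1 the fatty acid arm had medians of 0.52 and 0.62, and without LBR, TM7SF2, GGPS1 and ACAT2 the sterol arm had 0.63 and 0.66. At 12 h the sterol median was the higher with or without these genes. At 24 h it was the lower only where the fatty acid arm alone was trimmed (0.62 against 0.60), a gap within the replicate spread. No test of the difference between the arms was made, since the genes of an arm are not replicates.

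A separate contrast, the log2 fold change at 24 h minus that at 12 h, tested whether the response changed with time. It was more positive at 24 h for 4 of the 50 genes, against 5.79% of all genes tested, and more negative for 7, against 6.54%. The 4 genes were MSMO1 (0.25, edgeR adjusted p = 0.0125), ACSS2 (0.24, adjusted p = 0.022), FDFT1 (0.22, adjusted p = 0.00721) and SCD (0.15, adjusted p = 0.047). The largest of the 7 were MYLIP (-0.80, edgeR adjusted p = 0.00012), ACACB (-0.67, adjusted p = 0.00539), NSDHL (-0.45, adjusted p = 0.000388) and MVK (-0.40, adjusted p = 0.00338). MVD (-0.28, edgeR adjusted p = 0.00268), IDI1 (-0.27, adjusted p = 0.00783) and TMEM97 (-0.19, adjusted p = 0.0444) were smaller. MYLIP and ACACB moved away from IgG at 24 h, whereas MVK, MVD, IDI1, NSDHL and TMEM97 came closer to it. Within the sterol arm, the 3 mevalonate genes with a change were all more negative, and of the 3 later genes FDFT1 and MSMO1 were more positive and NSDHL more negative. Of 18 alternatives, the call was lost under 12 for SCD, 11 for TMEM97, 9 for ACSS2, 8 for MSMO1, 6 for IDI1 and 5 for FDFT1, and under at most 3 for each of the other 5 genes. The count of 11 genes became 6 without IgG 12 h replicate 1, none of them more positive at 24 h, and 6 without replicate 2 of that group, 1 of them more positive.

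**Figure D4:**
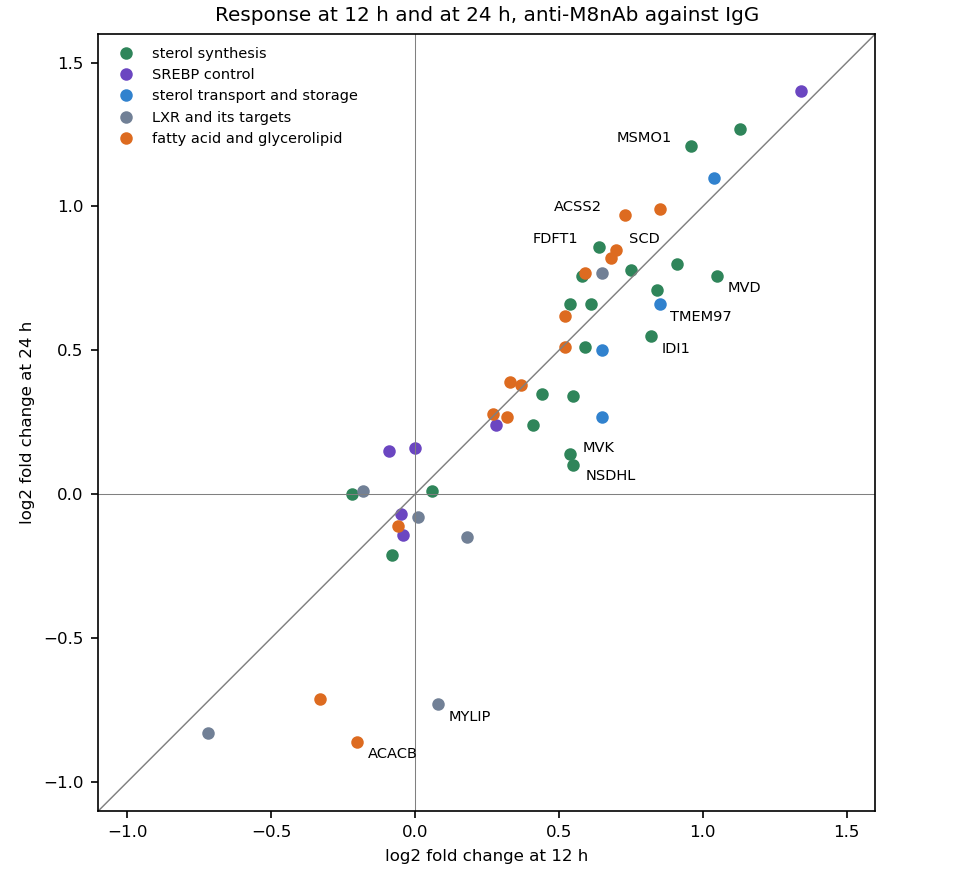
Log2 fold change at 24 h against that at 12 h for the 50 genes, coloured by role, with the line of equal response. The 11 named genes are those whose response differed between the times, and MYLIP (0.08 and -0.73) lies farthest from the line.

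The control cells also changed with time. Between IgG at 12 h and at 24 h, LPIN1 was higher (0.52, edgeR adjusted p = 4.9e-05), 1 of 50 genes against 7.01% of all genes, and 10 genes were lower, against 6.64%. The 10 were TM7SF2 (-0.31), LBR (-0.31), IDI1 (-0.29), MVK (-0.23), INSIG1 (-0.21), TMEM97 (-0.21), ELOVL6 (-0.19), ACAT2 (-0.16), SCD (-0.16) and LSS (-0.15). The count of 11 became 6 when IgG 12 h replicate 1 was left out, 4 when replicate 2 of that group was, and 7 when IgG 24 h replicate 2 was. MVK, IDI1, TMEM97 and SCD thus differed in the controls as well as in the response.

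Other genes of the same pathways were taken as lists, to be read beside the shares over all genes tested, 15.8% higher and 16.4% lower at 12 h and 21.2% and 21.3% at 24 h. Of 14 genes on the isoprenoid branches, which lead from farnesyl diphosphate to ubiquinone, dolichol and prenylated proteins, 3 passed as higher and none as lower at 12 h, while at 24 h 3 passed as higher and 2 as lower, with medians of 0.06 and -0.04, so that these counts did not stand out from those shares. COQ2, of ubiquinone synthesis, was higher (0.26 and 0.61), as was RABGGTA, a subunit of Rab geranylgeranyl transferase (0.35 and 0.44). PDSS2, of the ubiquinone side chain, passed at 12 h (0.29), and DHDDS, of dolichol synthesis, was lower at 24 h (-0.31).

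Of 13 genes of lipoprotein uptake and sterol trafficking, higher calls numbered 5 at 12 h and 8 at 24 h, and lower calls 1 at either time, with medians of 0.11 and 0.30. VLDLR, a lipoprotein receptor, was at 56.6 and 58.4 against 84.7 and 79.5 CPM at 12 h and at 52.8 and 53.7 against 164 and 165 CPM at 24 h, log2 fold changes of 0.51 and 1.63. LRP8, a related receptor, was higher by 0.45 and 0.46, NPC2, the partner of NPC1 in lysosomes, by 0.32 and 0.42, and GRAMD1A, a sterol carrier of the endoplasmic reticulum, by 0.45 at 24 h (0.03 at 12 h, not passed). The gene that was lower at both times was SCARB1, the HDL receptor.

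Of 17 other genes of chain elongation and acyl-CoA supply, 15 were tested. At 12 h 7 of these passed as higher and 4 as lower, and at 24 h 8 and 4 did. ACSL1, a long-chain acyl-CoA synthetase, was at 60.1 and 59.4 against 136 and 141 CPM at 12 h and at 69.3 and 60.7 against 118 and 123 CPM at 24 h, log2 fold changes of 1.21 and 0.89. HSD17B12, the 3-keto reductase of elongation, was higher by 0.51 and 0.64, SLC25A1, the mitochondrial citrate carrier, by 0.28 and 0.38, and MLXIPL, which encodes ChREBP, by 0.80 and 0.63. The dehydratases HACD1, HACD2 and HACD3 were lower at both times.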

How the data were processed

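RNA of BG01 hESCs was sequenced in 8 libraries, 2 for each of 4 groups given by the sample labels. The authors used Trimmomatic for trimming, STAR in 2-pass mode for alignment to GRCh38.p14, Picard for duplicate removal and HTSeq for counting over the Ensembl genes. FastQC 0.11.9 and GATK also stand in the submitters' processing notes. The deposited count table holds raw read counts per gene. The deposited FPKM values were computed by the authors with RNAnorm and serve here for levels between genes and for alternatives. Each table has 4 further columns that were not used. The 1005 lines with a blank name (the last 5 hold 53.2 to 54.1% and the other 1000 hold 0.089 to 0.0965% of all counts) were left out. Removing duplicates can lower the counts of abundant genes.

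Identifiers were matched to symbols in GENCODE v44 (62086 of 62086). In 358 pairs of opposite-strand genes with at least 90% of the inner gene's exons inside the other, the inner gene had a median of 1.664 times the counts per kilobase of its host, so reads of both strands were taken as counted.

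Counts were filtered by expression (20165 genes), scaled by TMM and modelled in edgeR 4.0.16 (R 4.3.3) with 1 mean per group, which left 4 residual degrees of freedom. The common biological coefficient of variation was 5.53%. Comparisons used two-sided quasi-likelihood F tests, with p-values adjusted by Benjamini-Hochberg over all genes tested, at 0.05. The SE is the size of the log2 fold change divided by the square root of F. CPM is on TMM-scaled library sizes. With 2 libraries of a group, called biological replicates by the labels without naming separate cultures, p-values reflect only the spread among these libraries, which may be technical. The code was tested on simulated data. Alternatives were DESeq2 1.42.0, its size factors, library sizes alone, other filters, limma 3.58.1 on log2(FPKM + 1) or log2(FPKM + 0.1) with a mean FPKM of at least 0.5, protein-coding genes alone, each time alone, a replicate block and each library left out.

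The members, lists, roles and motifs were chosen with earlier results of these data known. Every member is named. All 8 values are given for members past an adjusted p of 0.05 and a log2 fold change of 1, for members whose response differed between times, and for up to 4 members of each role with the smallest adjusted p. Lists are described by counts and at most 3 genes per time, taken by smallest adjusted p. SCARB1, AGPAT3 and the HACD genes, outside this rule, were named after their values were seen. Some genes of these pathways are not reported here.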

Additional observations from a re-analysis of the deposited data

Results flagged for a closer look

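The response of 11 genes to anti-M8nAb differed between 12 and 24 h by the test of that difference (log2 fold change at 24 h minus that at 12 h, edgeR, adjusted over all genes tested). MYLIP (-0.80), ACACB (-0.67), NSDHL (-0.45), MVK (-0.40), MVD (-0.28), IDI1 (-0.27) and TMEM97 (-0.19) were more negative at 24 h. MSMO1 (0.25), ACSS2 (0.24), FDFT1 (0.22) and SCD (0.15) were more positive. These 4 calls were less firm than those of MYLIP, ACACB, NSDHL, MVK and MVD. None was made without IgG 12 h replicate 1, 1 was made without replicate 2 of that group and 1 with no filter on low counts, and of 18 alternatives 8, 9, 5 and 12 in turn lost the call. The calls of TMEM97 and IDI1 were not firm either, and were lost under 11 and 6 of the 18. With 2 libraries in a group, no test for a library that stands apart from its group was made.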

How the results depend on the processing

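No result changed direction. Requiring a log2 fold change of 1 left 4 genes at 12 h, 4 at 24 h, 0 for the difference between times and 0 between the IgG groups. The difference count (11) was 6 with no filter on low counts and 2, 1 and 0 with limma on log2(FPKM + 1), on log2(FPKM + 0.1) and on genes with any FPKM. The count between IgG groups (11) was 2, 2 and 0 under the same 3. Leaving out 1 library gave 34 to 36 genes at 12 h, 33 to 37 at 24 h, 6 to 10 for the difference and 4 to 14 between IgG groups. The replicate block gave 36, 35, 11 and 11 genes, as without it; replicate numbers did not pair the libraries (correlations of deviations from -0.0985 to 0.0453).

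The sterol median was 0.53 at 12 h and 0.52 at 24 h by library sizes alone, which shift the median of all genes by -0.06 and -0.08, 0.52, 0.53 and 0.52 at 12 h and 0.51, 0.52 and 0.51 at 24 h by the 3 limma fits, and 0.63 and 0.66 without LBR, TM7SF2, GGPS1 and ACAT2. The fatty acid median was 0.39 and 0.36 by library sizes alone, 0.38 (12 h) and 0.35 (24 h) by limma on genes with any FPKM, 0.41 and 0.42 by the other limma fits at 24 h, and 0.52 and 0.62 without ACSL3, ACSL4 and LPIN1. Leaving out 1 library gave 0.58 to 0.63 and 0.59 to 0.64 for the sterol arm at 12 and 24 h, and 0.44 to 0.46 and 0.42 to 0.49 for the fatty acid arm. Apart from the changes of membership and of scaling, the cause was not tested.

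For single genes, the call was lost in 15 of the comparisons with an alternative at 12 h, in 27 at 24 h, in 63 for the difference and in 53 between IgG groups. Calls gained were 0 at 12 h, 17 at 24 h, 6 for the difference and 15 between IgG groups. Depth limited SCD5, ABCG1, ABCA1 and SOAT1, whose lowest library had 12, 15, 78 and 108 reads.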

Other observations

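The counts of 2 further lists of lipid genes are to be read beside the shares of all genes tested, 15.8% higher and 16.4% lower at 12 h and 21.2% and 21.3% at 24 h. Of 21 genes of fatty acid oxidation, at 12 h 2 passed as higher with anti-M8nAb and 4 as lower, and at 24 h 4 passed as higher and 5 as lower, with median log2 fold changes of -0.08 and -0.02, and these counts did not stand out from those shares. PPARA, a nuclear receptor that turns on oxidation genes, was at 7.7 and 8.55 CPM with IgG and 3.73 and 3.33 CPM with anti-M8nAb at 12 h, and at 8.44 and 8.06 against 4.04 and 3.56 CPM at 24 h, log2 fold changes of -1.20 and -1.12 with no overlap. ACADVL, the very long chain acyl-CoA dehydrogenase, was lower by -0.45 and -0.60 on the log2 scale. ECI2, an enoyl-CoA isomerase, was lower by -0.27 and -0.37, with 29.8% of its exon sequence under genes on the other strand. HADHA, a subunit of the trifunctional protein, was higher by 0.19 at each time.

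Of 19 genes of glycerolipid and phospholipid synthesis, at 12 h 4 passed as higher and 8 as lower, and at 24 h 2 and 8 did. AGPAT1, an acyltransferase that makes phosphatidate, was at 124 and 121 against 91.1 and 91.7 CPM at 12 h and at 112 and 123 against 83.9 and 91.4 CPM at 24 h, giving -0.42 on the log2 scale each time. Its relatives AGPAT2 (-0.60 at 12 h) and AGPAT5 (-0.18 and -0.36) were also lower, with AGPAT2 at -0.23 and not passed at 24 h. AGPAT3, a further relative at a low level (1.25 to 5.95 CPM over all libraries), had larger falls of -1.60 and -1.48. CHKA, choline kinase, passed in opposite directions, at 75.8 and 78.7 against 98.1 and 99.5 CPM at 12 h (0.35) and at 98.3 and 92.1 against 68.1 and 64 CPM at 24 h (-0.53). PCYT2, of phosphatidylethanolamine synthesis, was higher at 12 h (0.61) and did not pass at 24 h (0.07). Genes on the other strand overlap 30.3% of the exon sequence of AGPAT1, 28.3% of that of PCYT2 and 16.3% of that of CHKA.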
